A study of Mus musculus with 8 samples.

Results

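Ribosome footprints were set against total RNA in wildtype (WT) mouse neurons at day 8 in vitro, to give the baseline translational efficiency of each expressed gene. The comparison used 4 of the 8 libraries of the series, namely 2 footprint and 2 total RNA libraries of WT neurons, paired by replicate number into culture 1 and culture 2. The neurons came from the mouse embryonic stem cell line CGR8, which grows without feeder cells, and were kept in Neurobasal-A medium with B27. Cells of all groups were treated for 5 minutes with cycloheximide, which stops elongating ribosomes (100 µg/ml). The ARTseq kit served for the footprints. The other 4 libraries are footprints and RNA of the same kind of neuron labelled as an Eif4g1/Eif4g3 double knockout (DKO), treated alike. They entered the fit for the estimate of the spread and 1 comparison near the end. The labels give no more on the origin of the 2 WT cultures than their codes, which differ in form, so p-values here cover only the variation among these libraries, which may be technical.

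Ribosome profiling sequences the stretch of mRNA that a ribosome shields from nuclease, so the number of footprints of a gene follows how many ribosomes sit on its mRNAs. Divided by the RNA of the gene it gives translational efficiency, which reflects how often ribosomes start and how long they stay. Initiation is governed by the cap-binding eIF4F complex, by structure and small reading frames in the 5′ UTR, and by RNA-binding proteins. In neurons, this layer of control is known for the supply of synaptic proteins and for the response to activity and stress.

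WT footprint libraries held 19753419 and 14450410 counts and WT RNA libraries 14762047 and 22352224. Of 18301 genes in the table, 12993 with a mean of at least 1 CPM (counts scaled to a common library size) over the 4 WT libraries were tested, and 5308 were not. Values are log2 of footprints over RNA with the standard error (SE) of the fit, and a gene was called at a Benjamini-Hochberg adjusted p under 0.05 in edgeR's quasi-likelihood test. The scale is relative: scaling places the typical gene near 0, so a shift common to all genes is not seen. The footprints of an mRNA lie mostly on its coding part, while RNA reads cover all of it. A second measure therefore set footprints per coding length against RNA per transcript length. Counts were given per transcript and were not limited to the coding part, so footprints elsewhere on a transcript may be included. It is given where it turns the direction of a gene whose value is printed.

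The label of cortical glutamatergic neurons was checked against marker genes. The neuronal genes Tubb3 (2816 and 2419 CPM in footprints), Map2 and Snap25 were abundant, and Slc17a6, the vesicular glutamate transporter VGLUT2, stood at 166.8 and 74.83 CPM in footprints and 164.6 and 77.21 CPM in RNA. The cortical factors Emx1, Fezf2 and Tbr1, and Slc17a7, the transporter of most cortical glutamatergic neurons, were below 1 CPM in all 4 libraries. Some genes of inhibitory neurons were present, with Slc32a1, the vesicular GABA transporter, at 249.8 and 226.4 CPM in footprints. Dlx2, Dlx5 and Pvalb of the same list were below 1 CPM in all 4 libraries. Marker genes of astrocytes, oligodendrocytes, radial glia and dividing cells were also present. In footprints the astrocyte list summed to 2246 and 2240 CPM and the oligodendrocyte list to 970.5 and 1214 CPM. The radial glia list summed to 4929 and 5423 CPM and that of dividing cells to 678.5 and 846.8 CPM. Fabp7, of the radial glia list, was above Tubb3 in all 4 libraries. It stood at 3793 and 3733 CPM in footprints and 1991 and 1975 CPM in RNA. The 10 markers of microglia and blood summed to 1.871 and 7.168 CPM in footprints and 4.556 and 6.397 CPM in RNA. Of these, C1qb and Hbb-bt were at 0 in all 4 libraries and Tmem119, at 1.644 and 6.51 CPM in footprints and 2.215 and 3.463 CPM in RNA, was the only one to pass the filter. The 12 mesenchymal and endothelial markers summed to 379.3 and 1043 CPM in footprints and 221.5 and 572.8 CPM in RNA, higher in culture 2 in both assays. The values below are thus averages over a mixed culture, and in such bulk samples fewer cells of a type and less RNA per cell cannot be told apart.

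Translational efficiency spread widely. Footprints were higher than RNA, by the call, in 4759 genes (36.6% of those tested) and lower in 4980 (38.3%). Thus 75% of genes stood apart from the typical gene, and the calls of each list below are to be read against these shares. The call with a change of over 2-fold was met by 1595 genes on the higher and 2011 on the lower side. The 5th percentile lay at -1.81, which is 3.52-fold below RNA, the median at -0.02 and the 95th percentile at 1.47, which is 2.77-fold above. The median SE was 0.11. Footprints were also concentrated on fewer genes: 50% of the counts came from 893 and 941 genes in footprints and from 1276 and 1343 in RNA. With library totals in place of TMM scaling the median moved by -0.24 and the split of the calls became 3470 higher to 6279 lower (35.6% higher, against 48.9%), so directions below are relative to the typical gene.

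**Figure D1:**
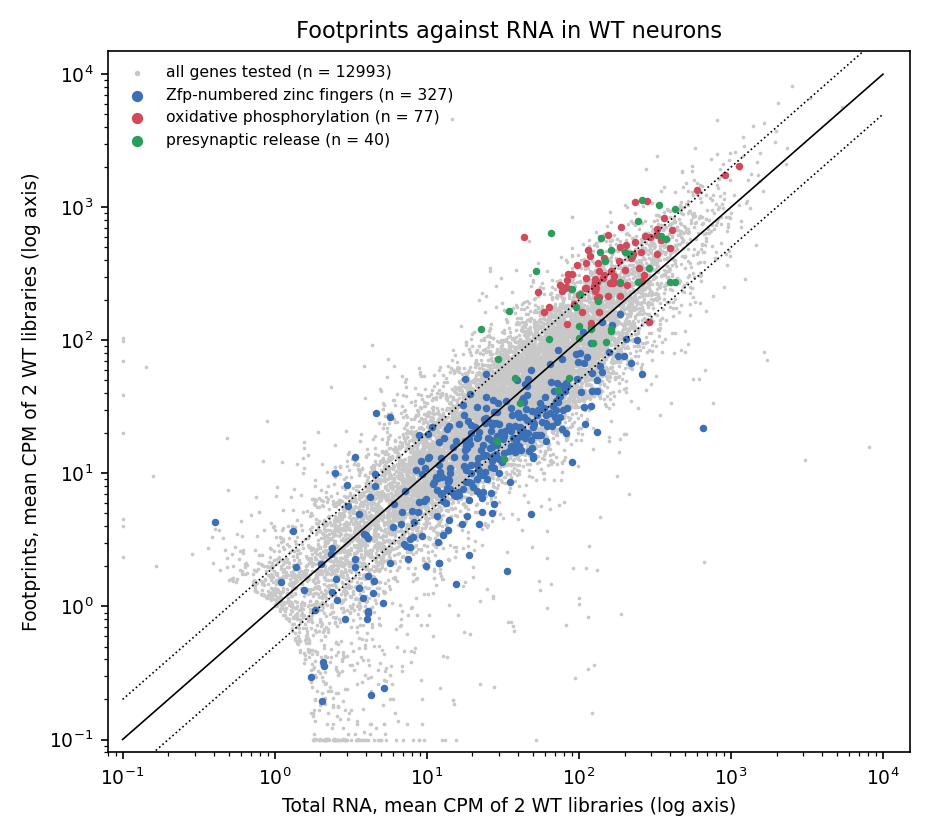
Mean CPM of the 2 WT footprint libraries (vertical, log axis) against mean CPM of the 2 WT total RNA libraries (horizontal, log axis) for the 12993 genes tested, with equality as a solid line, 2-fold as dotted lines and means below 0.1 CPM drawn at 0.1. Oxidative phosphorylation genes lie mostly above the line and Zfp-numbered zinc finger genes mostly below it.

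The 2 cultures gave like values. Across genes, the log2 ratio of culture 1 and that of culture 2 had a Pearson r of 0.941 and a Spearman rho of 0.949, over genes that share the 4 libraries and are not independent replicates. The ratio had the same sign in both cultures in 11905 genes (91.6%), the median absolute difference was 0.15, and 340 genes differed by more than 1.

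**Figure D2:**
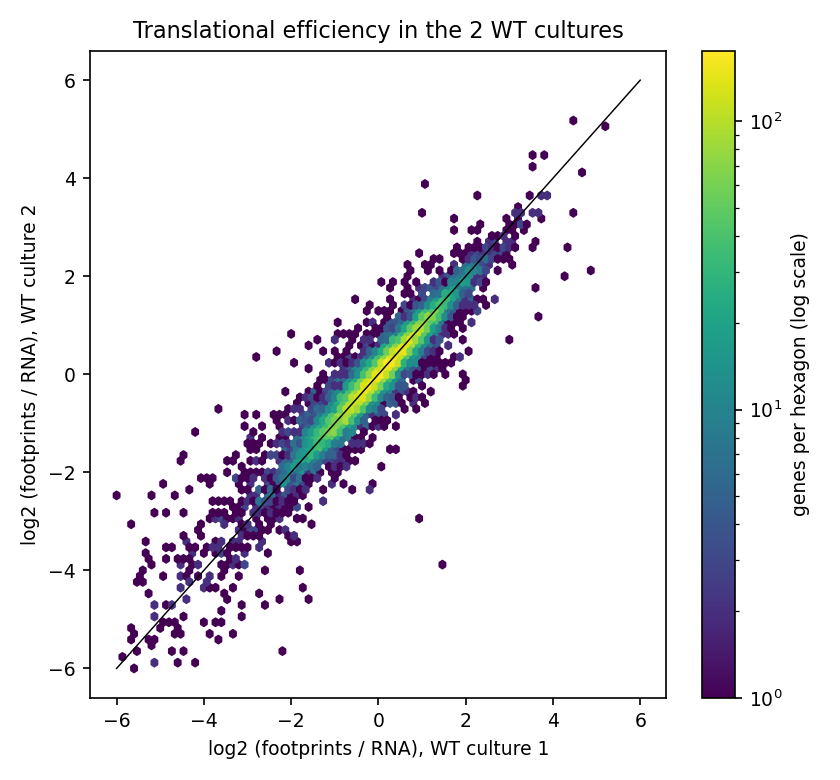
Log2 of footprints over RNA in WT culture 2 against WT culture 1, as the number of tested genes per hexagon on a log colour scale, with equality as a line; 104 genes beyond ±6 are not drawn. Most genes lie close to the line, and the scatter widens on the lower side.

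The 2 ferritin mRNAs differed in efficiency although their iron-responsive elements are nearly alike. These hairpins in the 5′ UTR hold back translation when iron regulatory proteins bind them, and the 2 ferritin chains carry nearly the same one. The elements are shown because the subunits differ in efficiency while their elements match at 26 of 29 bases. Capitals mark the CAGTGN loop that the search required, and sequences are from GENCODE M21 (GRCm38).
Fth1: tcctgcttcaaCAGTGCttgaacggaacc
Ftl1: tcttgcttcaaCAGTGTttgaacggaaca
Slc40a1: aacttcagctaCAGTGTtagctaagtttg
The Fth1 element lies at chr19:9982733-9982761 (plus strand), that of Ftl1 at chr7:45459778-45459806 (minus strand) and that of Slc40a1 at chr1:45925464-45925492 (minus strand).

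Ftl1, the ferritin light chain (ENSMUSG00000050708, chromosome 7, 45457944 to 45459884), stood at 181.2 and 150.3 CPM in footprints and at 728.1 and 645.8 CPM in RNA. Both footprint libraries were far below both RNA libraries, a log2 value of -2.05 ± 0.14 (adjusted p = 2.22e-09, edgeR quasi-likelihood). Fth1, the heavy chain that oxidises iron (ENSMUSG00000024661, chromosome 19, 9980598 to 9985098), stood at 354.1 and 294.1 CPM in footprints and 197.9 and 232 CPM in RNA. Its value was 0.59 ± 0.12 (adjusted p = 0.000116, edgeR) with 0.84 in culture 1 and 0.34 in culture 2, and the call was lost without the footprints of replicate 1 (0.34). Coding shares of the transcripts were close, at 57% and 59.1%, and the second measure gave -2.22 and 0.37. Both genes have near-identical processed copies in the mouse genome, so the division of short reads among copies is uncertain.

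The list of mRNAs with iron-responsive elements also takes in Tfrc, whose elements lie in the 3′ UTR. Of its 8 tested genes, 2 were called higher and 5 lower (25% and 62.5%, against 36.6% and 38.3% of all genes, median -0.63). The higher calls numbered 0 without the footprints of replicate 1 and 1 without any other WT library or with library totals. Slc40a1, the iron exporter ferroportin, had few counts, at 2.892 and 1.829 CPM in footprints and 6.074 and 8.516 CPM in RNA (-1.60 ± 0.23, adjusted p = 1.93e-06, edgeR). Tfrc, the transferrin receptor, was among those lower at -0.74 ± 0.09. Epas1 (HIF-2α) was not called (-0.25 ± 0.18, adjusted p = 0.215, edgeR).

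Genes known for control by small reading frames upstream of the coding sequence were mostly lower in footprints. Such frames take up scanning ribosomes and reduce the number that reach the main start codon. The counts per transcript do not separate footprints on such frames from those on the main coding sequence. The first frame of at most 30 bases is shown for 5 of these genes, complete from start to stop codon, both in capitals (GENCODE M21, GRCm38).
Amd1: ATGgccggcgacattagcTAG
Azin1: ATGatagggggttccatctccTAA
Atf4: ATGgcgtatTAG
Odc1: ATGacgacgtgctcggcgtataagTAG
Bace1: ATGgtggccTGA
They lie at chr10:40302155-40302175 (minus strand, 12 bases into a 5′ UTR of 328), chr15:38514482-38514505 (minus, 460 into 747), chr15:80255582-80255593 (plus, 399 into 594), chr12:17544921-17544947 (plus, 128 into 489) and chr9:45838638-45838649 (plus, 59 into 448).

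The median of this list was -0.67, against -0.02 over all genes. Of its 13 gene records tested, 1 was called higher and 10 lower (7.69% and 76.9%, against 36.6% and 38.3% of all genes). The phosphatase gene Ptp4a1 counts among them under 2 overlapping records, both called lower. The one with more counts stood at 121.8 and 120.3 CPM in footprints and 325.4 and 339.7 CPM in RNA (-1.46 ± 0.10), but at 1.27 per coding length. Amd1, the decarboxylase that supplies polyamine synthesis (ENSMUSG00000075232, chromosome 10, 40287458 to 40302186), stood at 63.9 and 74.46 CPM in footprints and 187.7 and 184.3 CPM in RNA (-1.43 ± 0.10, adjusted p = 1.98e-11, edgeR). Azin1, the inhibitor of antizyme, stood at 196.8 and 170.8 CPM in footprints and 487.6 and 458 CPM in RNA (-1.37 ± 0.10, adjusted p = 5.54e-11, edgeR). Bace1, the β-secretase of amyloid precursor processing, had a value of -1.17 ± 0.09, and -0.20 per coding length, where the call was lost. In each of these the footprint libraries lay below both RNA libraries.

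Among the stress genes of the list, Atf4, the transcription factor of the integrated stress response, stood at 180 and 212 CPM in footprints and 164.5 and 153.4 CPM in RNA. The libraries did not overlap, and the value was 0.30 ± 0.11 (adjusted p = 0.0171, edgeR). The Atf4 call was lost without either library of replicate 2 (0.13 without its footprints, 0.12 without its RNA), with library totals (0.06) and per coding length (0.04). Ddit3, its target CHOP, was lower at -0.33 ± 0.10, a call that was lost without any 1 of the 4 WT libraries (-0.34 to -0.28). Ppp1r15a, the phosphatase subunit that reverses the stress signal, was lower at -0.67 ± 0.11. Per coding length the list median was -0.20 and the calls 4 higher and 5 lower of 12, and the coding share of the transcript was 31.4% in Amd1 and 24.9% in Bace1.

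Polyamine pathway genes were called lower in 54.5% and higher in 18.2%, against 38.3% and 36.6% of all genes. The list overlaps the one above, as Amd1 and Azin1 are members of both. Per coding length its median was -0.07, with 3 higher and 5 lower of 11. Odc1, ornithine decarboxylase, was at 242 and 281.8 CPM in footprints and 229.8 and 277.4 CPM in RNA, with overlapping libraries. Its value was 0.05 ± 0.10 (adjusted p = 0.656, edgeR), but -0.26 and called lower per coding length. Srm, spermidine synthase, was higher at 1.14 ± 0.09, but at -0.20 and not called with coding isoforms only. In that setting 0 members of the list were called higher and 6 lower. Oaz1, the antizyme whose reading frame needs a polyamine-dependent frameshift, was lower at -0.62 ± 0.10 but 0.19 per coding length. Of 11 members tested, 2 were called higher and 6 lower, with 1 higher and 8 lower by library totals and 3 lower without the libraries of replicate 1.

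**Figure D3:**
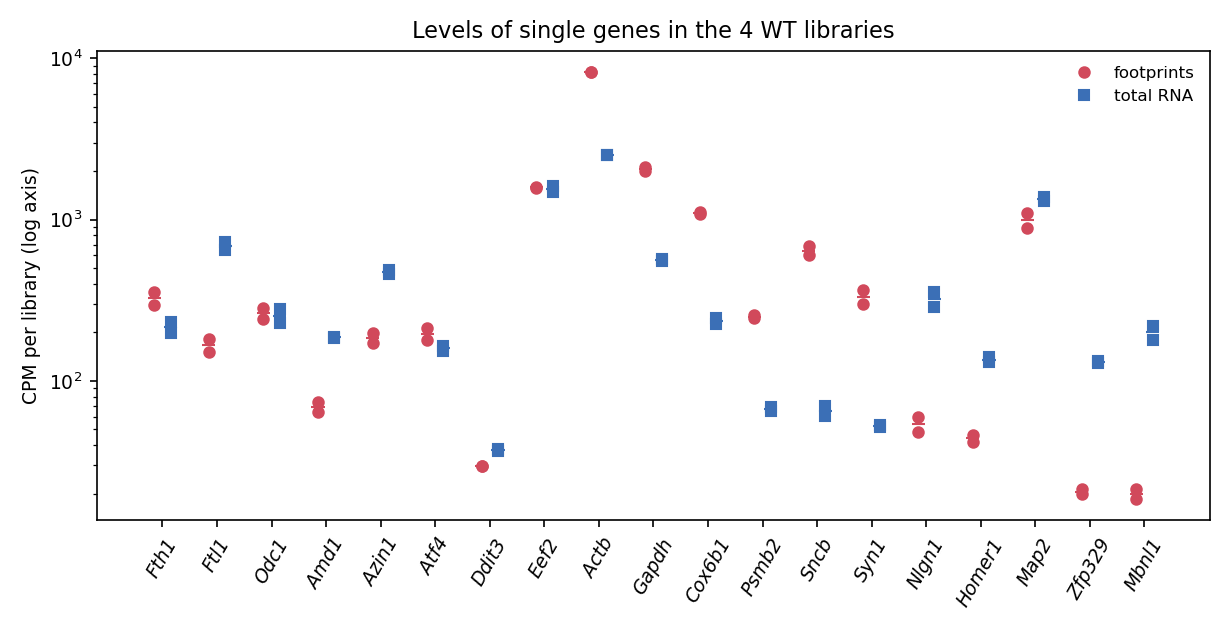
CPM (log axis) of 19 genes in each WT library, footprints as circles and total RNA as squares, with the mean of each pair as a short line. Replicates lie close together, and Ftl1, Amd1, Azin1, Nlgn1, Homer1, Zfp329 and Mbnl1 have footprints well below RNA, Sncb, Syn1, Cox6b1 and Psmb2 well above it.

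Genes of energy metabolism and protein turnover were mostly higher in footprints. Of 77 nuclear genes of oxidative phosphorylation, 71 were called higher and 1 lower (92.2% and 1.3%, against 36.6% and 38.3% of all genes). The median was 1.05. Cox6b1, a subunit of cytochrome c oxidase, stood at 1089 and 1119 CPM in footprints and 245 and 223.7 CPM in RNA (2.24 ± 0.11, adjusted p = 5.25e-14, edgeR), and Uqcrq, of complex III, at 632.4 and 570.3 CPM in footprints against 42.77 and 44.09 CPM in RNA (3.79 ± 0.12). Cox7a2l, which takes part in supercomplex assembly, was the member called lower (-1.08 ± 0.12). The list held 2.99% and 2.96% of all footprint counts and 1.71% and 1.61% of RNA counts.

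Glycolytic and citric acid cycle genes gave 27 higher and 1 lower of 30 (90% and 3.33%, against 36.6% and 38.3% of all genes). Their median was 0.96. Gapdh had 2108 and 2011 CPM in footprints and 567.3 and 550.5 CPM in RNA (1.88 ± 0.12), and the malate dehydrogenase Mdh2 a value of 2.06 ± 0.11. Mitochondrial ribosomal proteins followed with 55 higher and 2 lower of 77 (median 0.61), led by Mrps6 at 2.09 ± 0.09. They gave 45 higher and 9 lower with library totals, and 45 higher and 17 lower of 76 with coding isoforms only. All of these lists kept a positive median per coding length (0.56 to 0.87).

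Of 32 proteasome genes 31 were called higher and 0 lower (96.9% and 0%, against 36.6% and 38.3% of all genes, median 1.0). The catalytic-core subunits Psmb2 (244 and 257 CPM in footprints, 68.97 and 64.83 CPM in RNA, 1.91 ± 0.10) and Psmb3 (1.88 ± 0.11) were among them, as was Psmb5, which carries the chymotrypsin-like site (1.65 ± 0.11). Cytosolic chaperones gave 20 higher and 1 lower of 22 (median 0.89), with Hsp90ab1 at 1.65 ± 0.12 and the chaperonin subunit Cct8 at 1.37 ± 0.11. In the endoplasmic reticulum list, 17 of 24 were higher and 1 lower, or 13 and 3 with library totals, and Pdia3, a disulfide isomerase for glycoproteins, reached 1.87 ± 0.11. Per coding length the proteasome, cytosolic chaperone and endoplasmic reticulum medians were 0.48 each.

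Cholesterol synthesis was split. Of 22 genes, 14 were called higher and 5 lower (63.6% and 22.7%, against 36.6% and 38.3% of all genes). With library totals the counts were 11 and 8. Dhcr7, the enzyme of the last step, stood at 149.8 and 124.8 CPM in footprints and 34.17 and 33.09 CPM in RNA (2.02 ± 0.10, adjusted p = 2.34e-14, edgeR), and the transcription factor gene Srebf2 was higher at 1.54 ± 0.10. Insig1, the protein that retains the precursor of that factor in the endoplasmic reticulum, went the other way, with 184.6 and 189.4 CPM in footprints and 576.8 and 507.2 CPM in RNA (-1.53 ± 0.11, adjusted p = 1.59e-11, edgeR).

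The translation machinery itself was uneven. Initiation factors were called higher in 30 and lower in 3 of 39 (76.9% and 7.69%, against 36.6% and 38.3% of all genes). Their median was 0.67, and with library totals 27 were higher and 7 lower. Eif5a, which relieves stalled ribosomes, led them with a value of 1.94 ± 0.11 (adjusted p = 3.44e-13, edgeR). It stood at 1069 and 975 CPM in footprints against 276.3 and 254.6 CPM in RNA. The start-site selection factor Eif1 was at 1.77 ± 0.12. Within eIF4F, the cap-binding Eif4e stood at 0.69 ± 0.13 (0.13 and not called with coding isoforms only). The helicase Eif4a1 was at 1.18 ± 0.12, whereas the scaffold Eif4g1 was at 0.01 ± 0.11 (adjusted p = 0.95, edgeR). Eif4g1 had 301.7 and 264.8 CPM in footprints and 285.4 and 276.9 CPM in RNA. Per coding length its value was -0.79 and called lower. The scaffold Eif4g3 was called higher at 0.40 ± 0.10, a call lost with library totals (0.16) and without either library of replicate 1 (0.28 without its footprints, 0.34 without its RNA), and was -0.19 per coding length. Eif4g2, a relative without the cap-binding site, was lower at -0.71 ± 0.11.

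Aminoacyl-tRNA synthetases gave 17 higher and 0 lower of 20 (85% and 0%, against 36.6% and 38.3% of all genes). The median was 0.55, and Wars (1.30 ± 0.09) and Gars (1.24 ± 0.11), which charge tryptophan and glycine tRNAs, were among those higher. The direction of the list depended on the measure: per coding length the median was -0.02, with 6 higher and 8 lower.

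Ribosomal protein genes lay close to the typical gene and differed among themselves. Of 48 large-subunit genes, 23 were called higher and 8 lower (47.9% and 16.7%, median 0.24). Of 32 small-subunit genes 21 and 2 were (65.6% and 6.25%, median 0.35). Over all genes the shares were 36.6% and 38.3%. Without replicate 2 in both assays the counts were 13 and 6, and 13 and 2, and without replicate 1 in both assays 21 and 3 for the large subunit. With library totals the large-subunit genes gave 13 higher and 16 lower, and per coding length 18 higher and 20 lower. The small-subunit genes gave 13 higher and 7 lower with library totals, and 15 higher and 9 lower per coding length. Rpl28 stood at 346.8 and 350.3 CPM in footprints and 113.8 and 117.8 CPM in RNA (1.59 ± 0.11), Rps13 at 1.58 ± 0.10. At the other end Rpsa had 426.3 and 441.4 CPM in footprints and 1048 and 931.4 CPM in RNA (-1.19 ± 0.11, adjusted p = 3.15e-09, edgeR). Ribosomal protein genes have many processed copies, and reads may be divided among them.

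These mRNAs begin with a run of pyrimidines, the 5′ terminal oligopyrimidine (TOP) motif, through which mTOR signalling sets their translation. The starts of 4 TOP genes, all for ribosomal proteins except Eif3f, are shown as 30 bases beginning 10 before the annotated start. The 4 were chosen after their values were seen, as 2 low and 2 high ones. Capitals mark the pyrimidine run (RefSeq, GRCm38.p6).
Rpl13a: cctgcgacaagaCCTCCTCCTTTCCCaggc
Rps2: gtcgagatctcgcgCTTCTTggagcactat
Rps10: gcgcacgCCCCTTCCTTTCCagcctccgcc
Eif3f: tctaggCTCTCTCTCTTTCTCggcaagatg
Their positions are chr7:45128726-45128755 (minus strand), chr17:24720053-24720082 (plus), chr17:27635225-27635254 (minus) and chr7:108934405-108934434 (plus).

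Rpl13a (-0.95 ± 0.13) and Rps2 (-0.91 ± 0.12) were called lower, Rps10 (0.94 ± 0.11) and Eif3f, a subunit of the initiation factor eIF3 (1.36 ± 0.10), higher. A run was sought on the strand of the gene as a C that follows a purine, within 5 bases of the start, and at least 4 further C or T. It was found in 20 of the 71 ribosomal protein and other TOP genes matched to the promoter table (28.2%), against 12.4% of all 32851 promoters of the same length. The median was 0.25 with the run and 0.43 without it, and values with the run ranged from -0.95 to 1.36. Annotated starts can be off by a few bases, and a gene without a match in this window is not thereby without the motif.

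Of 17 other TOP genes, 10 were called higher and 2 lower (58.8% and 11.8%, against 36.6% and 38.3% of all genes, median 0.60). Per coding length the list median was 0.30, with 9 higher and 5 lower. Among those not called were the elongation factors Eef1a1 (6086 and 5221 CPM in footprints, 5636 and 5166 CPM in RNA, 0.06 ± 0.12, adjusted p = 0.655, edgeR) and Eef2 (0.04 ± 0.11, adjusted p = 0.777, edgeR) and the poly(A)-binding protein Pabpc1 (0.17 ± 0.11, adjusted p = 0.191, edgeR). Per coding length Eef1a1 was -0.55 and Eef2 -0.68, both called lower, and Pabpc1 was -0.24 and not called. Eif4b, a cofactor of the helicase, was lower at -0.69 ± 0.10. Nap1l1, a histone chaperone, was higher at 560 and 546.9 CPM in footprints against 149.1 and 169.9 CPM in RNA (1.80 ± 0.11). Tpt1, the translationally controlled tumour protein, was higher at 1.18 ± 0.11, but only 0.4% of its footprint counts and 50.5% of its RNA counts fell on isoforms annotated as coding, so that its value with coding isoforms alone was -5.81.

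**Figure D4:**
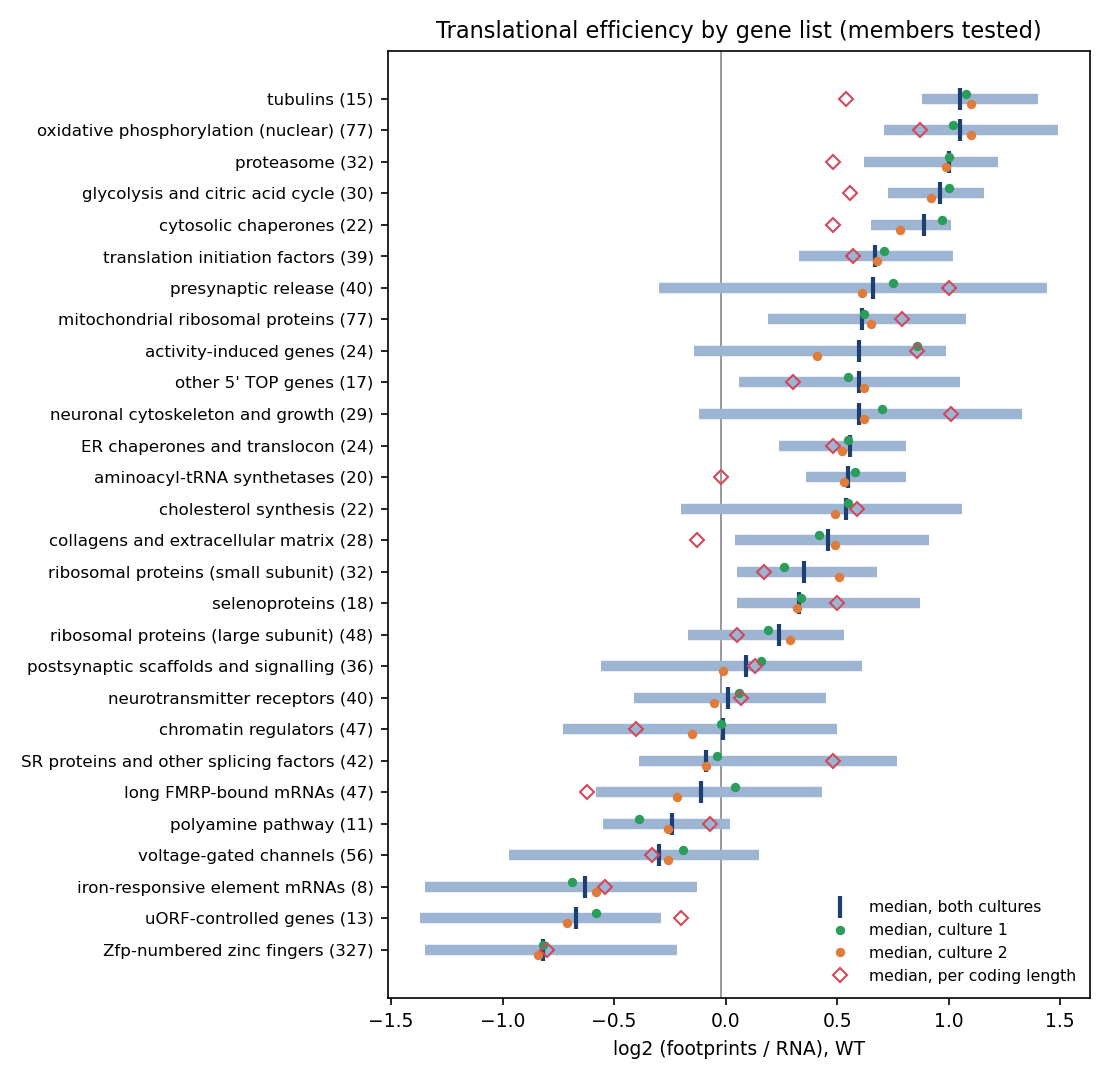
Log2 of footprints over RNA in WT for each gene list with at least 5 tested members (number in brackets), without the lists of marker genes. The median is a bar mark, the quartiles a band, the medians of culture 1 and culture 2 dots, and the median per coding length an open diamond. The vertical line is the median of all genes (-0.02). Tubulins, oxidative phosphorylation and proteasome genes lie highest and Zfp-numbered zinc fingers lowest.

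Genes of the synapse held both very high and very low values. The presynaptic release list had 26 called higher and 11 lower of 40 (65% and 27.5%, against 36.6% and 38.3% of all genes). Its median was 0.66, and 1.0 per coding length. With coding isoforms only, 19 of 38 were higher and 16 lower. Sncb, β-synuclein (ENSMUSG00000034891, chromosome 13, 54758860 to 54766595), stood at 599 and 681.9 CPM in footprints and 60.36 and 70.12 CPM in RNA, a value of 3.30 ± 0.12 (adjusted p = 2.22e-16, edgeR). The vesicle phosphoprotein Syn1 had 368.1 and 298.4 CPM in footprints and 52.96 and 51.71 CPM in RNA (2.66 ± 0.10). The vesicle GTPase Rab3b (2.41 ± 0.10) and the endocytic protein Sh3gl2, endophilin A1 (2.24 ± 0.10), were alike. The t-SNARE Snap25 stood at 1087 and 869.4 CPM in footprints and 455.7 and 402.8 CPM in RNA (1.18 ± 0.11). Bsn, bassoon, a very large protein of the active zone, was lower at -1.34 ± 0.11, and complexin 2 (Cplx2) was lower at -0.39 ± 0.09 but 2.24 per coding length, with a 3′ UTR of 4208 bases, and its call was lost without either library of replicate 1 (-0.33 without its footprints, -0.27 without its RNA).

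Postsynaptic scaffolds and signalling genes gave 15 higher and 15 lower of 36 (41.7% each, median 0.09), near the shares of 36.6% and 38.3% over all genes, and 10 higher and 18 lower with library totals. Nlgn1, neuroligin 1 (ENSMUSG00000063887, chromosome 3, 25426215 to 26332460), had 59.71 and 48.2 CPM in footprints and 288.8 and 357.7 CPM in RNA (-2.58 ± 0.13, adjusted p = 4.11e-12, edgeR). Its 5′ UTR of 1852 bases holds 27 upstream start codons. The scaffolds Homer1 (46.5 and 41.91 CPM in footprints, 140.1 and 131.3 CPM in RNA, -1.62 ± 0.10) and Homer2 (-1.66 ± 0.10) were lower as well, both also per coding length (-0.70 and -1.89). Shank1 was higher at 1.49 ± 0.12, with no counts on coding isoforms in either assay.

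Neurotransmitter receptors gave 12 higher and 13 lower of 40 (30% and 32.5%, against 36.6% and 38.3% of all genes), and 9 higher and 20 lower with library totals. The obligatory NMDA receptor subunit Grin1 had 194.9 and 155.4 CPM in footprints and 57.39 and 50.12 CPM in RNA (1.70 ± 0.10), while the AMPA receptor subunit Gria2, which sets calcium permeability, had 192.2 and 153.1 CPM in footprints and 378.3 and 338.1 CPM in RNA (-1.06 ± 0.10). Nicotinic subunits went apart too, with Chrna4 at 1.28 ± 0.10 and Chrnb2 at -0.94 ± 0.10, the latter 0.12 per coding length. Without the footprints of replicate 1 the receptors called higher were 7.

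Voltage-gated channels gave 12 higher and 28 lower of 56 (21.4% and 50%, against 36.6% and 38.3% of all genes, median -0.30, -0.33 per coding length), and 9 further ones were below 1 CPM. Kcnq3, of the M-current, stood at 27.61 and 27.58 CPM in footprints and 106.2 and 100.2 CPM in RNA (-1.90 ± 0.10). Kcna2 was lower at -1.60 ± 0.11 but 0.37 per coding length, its coding part being 13% of the transcript. Cacng7, an auxiliary subunit of AMPA receptors, was higher at 2.32 ± 0.10 (0.34 and not called with coding isoforms only) and Cacna1a, the pore of P/Q-type calcium channels, at 1.24 ± 0.10.

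Cytoskeletal genes were mostly higher in footprints. Of 15 tubulins 13 were called higher and 0 lower (86.7% and 0%, against 36.6% and 38.3% of all genes, median 1.05). Tubb4a stood at 350.6 and 321.5 CPM in footprints against 39.36 and 37.57 CPM in RNA (3.13 ± 0.10). The value of Tubb3 was 1.30 ± 0.12. Growth and cytoskeleton genes had 19 higher and 3 lower of 29, or 16 and 10 with library totals, led by the actin-sequestering Tmsb10, at 4259 and 4856 CPM in footprints and 847.7 and 775.8 CPM in RNA (2.49 ± 0.13), and the tubulin-binding Stmn4 (2.27 ± 0.11). Actb stood at 8198 and 8158 CPM in footprints and 2513 and 2505 CPM in RNA (1.70 ± 0.12). Map2, a dendritic microtubule-binding protein, was lower with 1095 and 884.4 CPM in footprints and 1370 and 1300 CPM in RNA (-0.44 ± 0.12, adjusted p = 0.00156, edgeR), a call that was lost without either library of replicate 2 (-0.32 without its footprints, -0.33 without its RNA). Map1a was lower at -0.92 ± 0.14. Tubulins and actins are families of similar sequence, so the share of each member is uncertain.

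The list with the lowest median was that of zinc finger genes. Of 327 tested genes named Zfp and a number, mostly DNA-binding factors of the C2H2 class, 35 were called higher and 236 lower (10.7% and 72.2%, against 36.6% and 38.3% of all genes). The median was -0.82, at -0.82 in culture 1 and -0.84 in culture 2, and -0.80 per coding length. Another 16 such genes in the table were below 1 CPM and not tested. Zfp329 stood at 19.79 and 21.43 CPM in footprints and 130 and 133.5 CPM in RNA (-2.68 ± 0.10), and Zfp992 at 1.418 and 2.268 CPM in footprints and 34.29 and 33.41 CPM in RNA (-4.23 ± 0.17). Of the footprint counts of Zfp329, 5.45% fell on coding isoforms. Many of these genes lie in clusters of similar copies, among which short reads may be divided.

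Splicing factors showed no common direction, with 19 higher and 17 lower of 42 (45.2% and 40.5%, against 36.6% and 38.3% of all genes), and 10 lower without replicate 2 in both assays. Per coding length 29 were higher and 7 lower. Mbnl1, a regulator of developmental splicing, had 21.32 and 18.51 CPM in footprints and 179.8 and 219.7 CPM in RNA (-3.31 ± 0.12), and the SR protein kinase Clk1 was lower at -1.55 ± 0.10 (-0.20 and not called with coding isoforms only), while Hnrnpd, which binds AU-rich elements, was higher at 1.42 ± 0.11. Chromatin regulators gave 16 higher and 19 lower of 47, shares of 34% and 40.4% that are near those over all genes, with the histone deacetylase Hdac1 at 1.17 ± 0.09. Per coding length they gave 6 higher and 28 lower of 43. The list of long mRNAs known as targets of FMRP, the protein lost in fragile X syndrome, also gave 16 higher and 19 lower of 47, the same shares (median -0.11). Its higher calls numbered 10 without replicate 1 in both assays and with library totals. It had a median of -0.62 per coding length, with 5 higher and 27 lower of 43, among them the ubiquitin ligase Herc2 (-1.42 ± 0.10). Fmr1 itself was lower at 105.4 and 82.44 CPM in footprints against 145.7 and 147.1 CPM in RNA (-0.65 ± 0.10).

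Activity-induced genes had 15 called higher and 6 lower of 24 (62.5% and 25%, against 36.6% and 38.3% of all genes, median 0.60). Their levels differed between cultures: Fos was at 81.25 and 42.06 CPM in footprints and 35.12 and 29.09 CPM in RNA (0.88 ± 0.13, adjusted p = 9.95e-06, edgeR), and Arc, a synaptic immediate early gene, at 11.4 and 6.51 CPM in footprints and 5.631 and 4.238 CPM in RNA (0.83 ± 0.17, adjusted p = 0.000112, edgeR). The list median was 0.86 in culture 1 and 0.41 in culture 2. Dusp1, a phosphatase of MAP kinases, was higher at 1.59 ± 0.14, and the antiproliferative Btg2 lower at -1.41 ± 0.10 but 0.13 per coding length. With the 4 WT libraries alone and no culture block, 8 of the list were called higher and 3 lower, and Fos was not called there (0.95) or with coding isoforms only (0.28).

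Genes of the matrix and of cell identity were measured in the same way. Col1a1, collagen I, stood at 111.5 and 266.8 CPM in footprints and 27.02 and 67.64 CPM in RNA, with culture 2 above culture 1 in both assays, and its value was 2.01 ± 0.10. The extracellular matrix list had 16 called higher and 5 lower of 28 (57.1% and 17.9%, against 36.6% and 38.3% of all genes). The list had 2 of each without the culture block. Its median was 0.46, but -0.13 per coding length, where 12 were higher and 9 lower, and the lower ones numbered 0 without replicate 1 and 2 without replicate 2 in both assays. Neuronal identity genes went both ways. Of 11 tested GABAergic markers 7 were called higher and 3 lower (63.6% and 27.3%), and of 15 glutamatergic markers 5 each (33.3%). In the GABAergic list Slc32a1 (2.12 ± 0.10) and the neuropeptide Sst (1.83 ± 0.09) were higher and Dlx1 lower (-1.61). With a mean of at least 5 CPM that list gave 7 higher and 0 lower of 8. In the glutamatergic list Tubb3 was higher (1.30). The nuclear receptor Rorb had 11.4 and 11.41 CPM in footprints and 85.86 and 112.6 CPM in RNA (-3.10 ± 0.12), and the homeobox gene Cux2 a value of -1.55 ± 0.10. The glial factor Sox9 was higher at 1.36 ± 0.10 and the Notch target Hes5 lower at -1.28 ± 0.11.

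Selenoproteins read a stop codon as selenocysteine. Of 18 tested, 9 were called higher and 4 lower (50% and 22.2%, against 36.6% and 38.3% of all genes, median 0.33). Selenot had 199.8 and 190.2 CPM in footprints and 580.3 and 583.9 CPM in RNA (-1.58 ± 0.12), and -0.13 and not called per coding length, its coding part being 18.6% of the transcript.

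Features of the transcript that the comparison did not use were then set against efficiency (12555 genes). They were taken from the complete protein-coding isoform of each gene with most WT RNA counts, as were the coding shares above. In some genes it held little of the RNA: coding isoforms took 0.102% of the RNA counts of Cisd3. Genes are not independent, and rho is given as a description. A start codon within the 5′ UTR went with lower values: the median was 0.18 in 5963 genes without any, -0.04 with 1, -0.16 with 2, -0.26 with 3 to 4 and -0.52 in the 909 genes with 5 or more. Within each of 5 equal classes of 5′ UTR length the genes with such a codon were lower, from -0.01 against 0.17 in the shortest class to -0.27 against 0.04 in the longest. Per coding length the order was the same, from 0.23 without any to -0.23 with 5 or more. The rho was -0.21, and -0.14 per coding length.

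The context of the main start codon gave a smaller gradient. With A or G at -3 and G at +4, counted from the A of the start codon, the median was 0.08 (5533 genes), with 1 of them -0.05 (5961) and with neither -0.25 (821). Genes with more G or C at the third codon position were higher, with a median of -0.38 in the lowest of 5 equal classes and 0.17 in the highest (rho 0.21, 0.20 per coding length).

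Length features depended on the measure. The median fell from 0.46 in the class of 5 with the shortest 3′ UTRs to -0.54 in that with the longest (rho -0.38), but per coding length it went from -0.05 to 0.30 (rho 0.12). Coding length had a rho of -0.16, and -0.50 per coding length. As the second measure divides by the coding share, part of either relation is set by its construction.

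**Figure D5:**
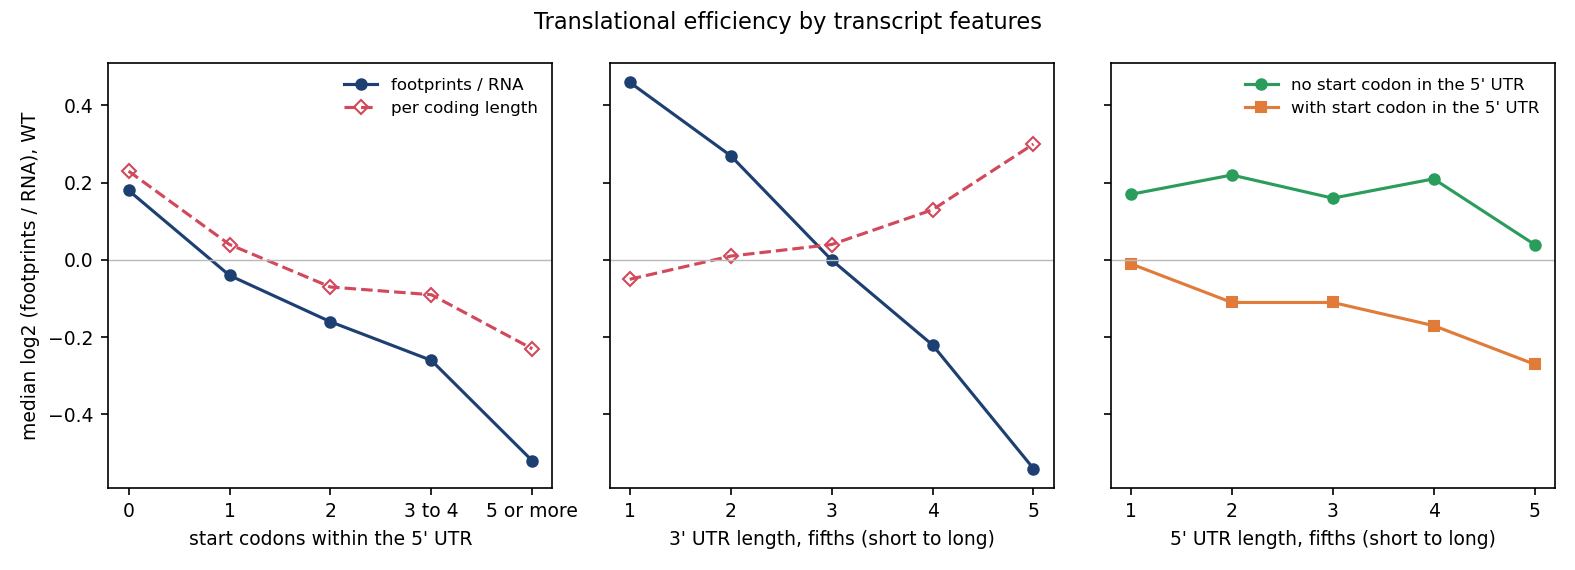
Median log2 of footprints over RNA in WT by number of start codons within the 5′ UTR (left), by 5 classes of 3′ UTR length (middle), each as filled circles with the value per coding length as open diamonds, and by 5 classes of 5′ UTR length for genes with and without a start codon in it (right). The left panel descends in both measures, from 0.18 and 0.23 to -0.52 and -0.23, and the middle one runs in opposite directions.

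The most extreme genes were taken by a rule that asks for a mean of at least 10 CPM and a log2 ratio beyond 1 in both cultures. Among the 15 highest, 4 genes (Npcd, Gm20662, Gm11007 and Gm28778) had 0 RNA counts in both libraries, and the Npcd call (adjusted p = 0.0285, edgeR) was lost without either RNA library. Their mean footprints were at least 1390, 942, 526 and 272-fold higher than a floor of 3 counts over both RNA libraries. Tmem38b, a cation channel of the endoplasmic reticulum (chromosome 4, 53826045 to 53862019), had 4742 and 4429 CPM in footprints and 15.31 and 14.02 CPM in RNA (8.29 ± 0.17). At the other end, Cisd3, an iron-sulfur protein of mitochondria (chromosome 11, 97685826 to 97688621), had 15.08 and 16.24 CPM in footprints and 6669 and 9444 CPM in RNA (-8.98 ± 0.19), but 0.89 with coding isoforms alone, on which 0.102% of its RNA counts fell.

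Of the 15 highest, 11 overlap exons of another gene, and of the 15 lowest 8, against 37.4% of all genes tested. Footprints were under 1 CPM on average in 10 of the 15 lowest. They include Il17f (2.325 and 1.975 CPM in footprints, 646.8 and 683.3 CPM in RNA) and Lrrc17 (9.583 and 15.65 CPM, against 3080 and 3075 CPM). Whether these reads come from the named mRNA was not tested. Further down the higher side were Uqcrq, given above, and Atp1b2, a subunit of the sodium pump (367.9 and 336 CPM in footprints, 24.74 and 27.71 CPM in RNA, 3.74 ± 0.11). The rest of the 15 highest were Mamdc4, Gm45234, Ifitm7, Prrt2, S100a11, Gm49325, 0610010K14Rik and Rnasek, and of the 15 lowest Gm14308, Tmprss13, Dnase1l3, Acnat1, Dmgdh, Fam177a, Slc39a2, Il17re, C5ar2, Card9, Rbm47 and Gja5.

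The efficiency of WT neurons was set against that of the DKO libraries in the same fit. No gene was called different (0.0% of 12993, edgeR interaction, smallest adjusted p = 0.277), 315 genes had an unadjusted p under 0.05, which is fewer than the 650 that make up 5% of the genes, and without the culture block 0 were called. For oxidative phosphorylation the list median was 1.02 and 1.1 in the WT cultures and 0.99 and 1.14 in the DKO cultures, and for the zinc finger genes -0.82 and -0.84 against -0.95 and -0.86. For large-subunit ribosomal proteins it was 0.19 and 0.29 against -0.00 and 0.36, and for the synthetases 0.58 and 0.53 against 0.82 and 0.54. A difference that misses the threshold with 2 cultures a genotype does not show that the values are equal.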

How the data were processed

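Ribosome footprints and total RNA of 4 WT and 4 DKO libraries were read from 1 deposited table of estimated counts per transcript. The submitters' processing notes name kallisto, Bowtie, Trimmomatic and FastQC. The set of transcripts, the strand setting, the build and all versions were not given in the sources used here. Of 60528 transcripts, 60444 (99.86%) matched GENCODE M21 (GRCm38) and were summed per gene, and the 84 others held 0.076% to 0.151% of the counts. The deposited estimated counts were whole numbers, so no rounding was needed.

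Genes with a mean of at least 1 CPM over the 4 WT libraries were fitted with edgeR 4.0.16 in R 4.3.3 (robust quasi-likelihood, TMM factors, Benjamini-Hochberg adjustment over all 12993 genes). The model held a term per culture and the footprint-to-RNA difference of WT and of DKO, with 2 residual degrees of freedom and a median prior of 20.35. Replicate numbers paired footprints and RNA of a culture. The culture codes in the labels match within each WT pair, while those of DKO replicate 2 are written differently, and replicate differences of the 2 assays had r = 0.59 across genes in WT and 0.199 in DKO. CPM were scaled by TMM factors. Tested on simulated data of 12993 genes, the fit called 91 of 100 shifted 2-fold and 77 of 100 shifted 1.5-fold. It also called 11 that had been left as they were. Without the culture block these numbers were 68, 21 and 0. The simulated counts came from the means and spread of the fit itself, with no difference in the genes left as they were. In the data 75% of genes were called, so these rates need not carry over. Alternatives were DESeq2 1.42.0, limma 3.58.1, other scalings, filters, isoform sets, a coding-length measure and each WT library left out. Depth of 14450410 to 22352224 counts per WT library limits genes near 1 CPM most.

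The named genes were the 15 of largest value per direction (mean of at least 10 CPM, beyond 1 on the log2 scale in both cultures, protein-coding), up to 4 called genes of smallest p per list, or 2 where none was called, and a set of well-known genes. Further genes were chosen after their values were seen. Members and lists were chosen with earlier results of these data known. Results for some genes are not reported here.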

Additional observations from a re-analysis of the deposited data

How the results depend on the processing

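The numbers of genes called higher and lower stayed within 1.5 times of 4759 and 4980 under every alternative run, and 0 genes differed between genotypes. Without the replicate block 4190 genes were higher and 4500 lower, and leaving out WT libraries gave 3936 to 4220 higher and 3920 to 4297 lower. Per coding length 1052 genes were called in both measures with opposite sign. Among the genes recomputed under these alternatives, signs turned as follows. With TMM within each assay Odc1 was -0.20, Eef1a1 -0.19, Eef2 -0.21, Pabpc1 -0.08 and Eif4g1 -0.24, and with library totals Odc1 was -0.19, Eef1a1 -0.18, Eef2 -0.20, Pabpc1 -0.07 and Eif4g1 -0.23. Eif4g1 was -0.01 with a mean of at least 5 CPM and -0.02 with filterByExpr. Per coding length Oaz1 was 0.19, Chrnb2 0.12, Kcna2 0.37, Btg2 0.13, Ptp4a1 1.27, Cplx2 2.24, Odc1 -0.26, Eef1a1 -0.55, Eef2 -0.68, Pabpc1 -0.24, Eif4g1 -0.79 and Eif4g3 -0.19. With coding isoforms only Cisd3 was 0.89, Srm -0.20, Eef1a1 -1.81 and Tpt1 -5.81. With 1 replicate left out, Eef2 ranged from -0.03 to 0.15, Pabpc1 from -0.02 to 0.35 and Eif4g1 from -0.06 to 0.08. For these the cause was not tested. Retained-intron isoforms took 7.22% of footprint counts in both WT libraries and 4.66% and 4.68% of RNA counts, and such short reads may be assigned to the wrong isoform or copy.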

Other observations

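Hox genes, the homeobox factors that set position along the body axis, were chosen after their values were seen. Of the 39 in the data, 21 were tested, with 11 called higher and 7 lower in WT footprints than in RNA (median 0.30). Over all genes 36.6% were called higher and 38.3% lower. Hoxb8 stood at 223.6 and 226.6 CPM in footprints and 23.92 and 22.17 CPM in RNA (3.29 ± 0.10, adjusted p = 1.62e-17, edgeR). Hoxb5 (2.40), Hoxc6 (2.36) and Hoxb6 (2.02) were higher too, whereas Hoxb2 was lower at -1.43. Together the Hox genes summed to 1440 and 1430 CPM in footprints and 822 and 828 CPM in RNA.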
